A study of Mus musculus with 6 samples.

Results

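The transcripts that build, coat and empty lipid droplets were followed in liver F4/80-positive cells of WT and Lpcat3 KOMac mice. The set held 10 genes chosen by name, *Plin2*, *Plin3*, *Plin4*, *Plin5*, *Cidec*, *Cideb*, *Dgat1*, *Dgat2*, *Pnpla2* and *Lipe*, out of 49315 genes in the count tables. All 10 were counted in every library and passed the low-count filter, which 16134 genes passed. None passed the test for a difference between the genotypes. The genes fell into 5 whose levels were nearly even over the 6 mice (highest over lowest library 1.25 to 1.63-fold) and 5 whose levels spread over 13.6 to 29.0-fold. Within the genotypes, these 5 spread over 13.6 to 29.0-fold among WT mice and over 2.25 to 7.80-fold among Lpcat3 KOMac mice.

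A lipid droplet is a core of triglycerides and cholesteryl esters enclosed by a single layer of phospholipids and a coat of proteins. Triglycerides are completed by the DGAT enzymes, the droplet is sheltered and remodelled by perilipins and CIDE proteins, and its triglycerides are released stepwise by lipases that begin with ATGL, the product of *Pnpla2*. In the liver, hepatocytes carry most of the droplets that accumulate on a high-fat diet, while Kupffer cells, the resident macrophages, also store lipid.

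The libraries came from cells taken from the liver with magnetic beads against F4/80, a surface protein of macrophages, with 1 library for each of 6 C57BL/6N mice. The 3 WT mice were Lpcat3 fl/fl littermates without Cre, so that they carried the floxed alleles too, and the 3 Lpcat3 KOMac mice were Lpcat3 fl/fl with 1 LysM-Cre allele, which drives recombination in myeloid cells and is inserted in the *Lyz2* gene. LPCAT3 is the enzyme that places polyunsaturated fatty acids in lysophospholipids. All mice were fed a 60% fat diet during 16 weeks from an age of 8 to 12 weeks, and the sex of the 6 mice is not given in the sources used here. The comparison asked which transcripts differ when *Lpcat3* is reduced in myeloid cells during diet-induced obesity, and it is read here for the droplet genes. Only the Lpcat3 KOMac mice carried the Cre allele, so that effects of less *Lpcat3* and of this allele cannot be told apart.

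Total counts per library lay between 44954224 and 71392812, and the lowest count of any of the 10 genes in any library was 36. Counting error was thus small beside the spread between mice of the 5 uneven genes. The targeted gene *Lpcat3* was 85.0, 66.2 and 61.2 CPM (the count scaled to a common library size by TMM) over the WT libraries, against 19.5, 33.3 and 19.4 CPM over the Lpcat3 KOMac libraries. It was lower in all mice labelled Lpcat3 KOMac than in all WT mice (log2 fold change -1.56, SE 0.26), and counts were left in every Lpcat3 KOMac library. Of its exonic bases, 334 (10.2%) are shared with *Emg1* on the other strand, which had 1676 to 2675 counts per library, so that the part of *Emg1* in the remaining *Lpcat3* counts cannot be told apart. *Lyz2*, the gene that carries Cre, averaged 6213 ± 1483 CPM (SD, n = 3) for WT, against 2322 ± 732 CPM (SD, n = 3) for Lpcat3 KOMac mice. All 8 Kupffer cell markers were counted above 3 in every library, with a summed level between 25850 and 42000 CPM. Hepatocyte markers were also present in every library, and their summed level over 10 genes differed 10.4-fold between libraries, from 2293 CPM in WT mouse 3 to 23790 CPM in WT mouse 1.

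Compared per length of exon, *Plin2* was the most abundant of the 10 transcripts in each of the 6 libraries, at 147.5 to 240.9 CPM per kb. *Plin2* encodes the droplet coat protein that most cell types outside fat tissue use. *Pnpla2* came next by median (39.2 to 60.6 CPM per kb), then *Plin3* (20.9 to 31.0 CPM per kb), and the ranges of these 3 genes did not overlap with one another. Below them the order by median was *Dgat2*, *Dgat1*, *Lipe*, *Cideb*, *Cidec*, *Plin5* and *Plin4*, and from *Plin3* downwards the range of every gene overlapped with that of the next. *Dgat2* had no fixed place in this order. It ranked 2 in WT mouse 1 and Lpcat3 KOMac mouse 2, and 6 in WT mouse 3.

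**Figure D1:**
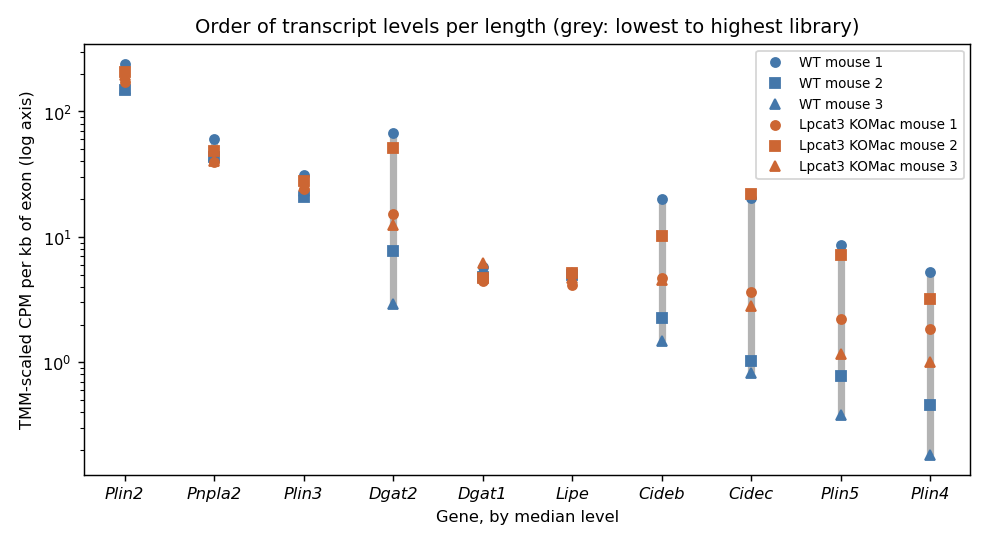
TMM-scaled CPM per kb of exon (log axis) of the 10 lipid droplet genes, ordered by their median over 6 libraries, with 1 point per mouse (blue WT, orange Lpcat3 KOMac) and a grey bar from the lowest to the highest library. *Plin2* lies above every other gene in each library, whereas *Dgat2* runs from 2.90 to 67.6 CPM per kb.

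The start regions of 4 of these genes are shown, so that those of even transcripts (*Plin2* and *Pnpla2*) and of uneven ones (*Cidec* and *Plin4*) can be read side by side. Each is the 250 bases before the start site in RefSeq (build GRCm38.p6), written 5′ to 3′ on the strand of the gene, and for *Cidec* the start site is the one farther upstream of 2. Capitals mark GGGCGG, the GC box to which SP1-type factors bind, and AGGTCA, the half-site of many nuclear receptors, each searched on both strands.
Plin2 (chr4:86670060-86670309, minus strand): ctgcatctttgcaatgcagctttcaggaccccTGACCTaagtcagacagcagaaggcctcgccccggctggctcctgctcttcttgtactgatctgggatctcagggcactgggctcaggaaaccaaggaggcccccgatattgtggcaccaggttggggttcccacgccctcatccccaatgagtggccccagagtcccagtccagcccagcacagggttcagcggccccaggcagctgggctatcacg
Pnpla2 (chr7:141454938-141455187, plus strand): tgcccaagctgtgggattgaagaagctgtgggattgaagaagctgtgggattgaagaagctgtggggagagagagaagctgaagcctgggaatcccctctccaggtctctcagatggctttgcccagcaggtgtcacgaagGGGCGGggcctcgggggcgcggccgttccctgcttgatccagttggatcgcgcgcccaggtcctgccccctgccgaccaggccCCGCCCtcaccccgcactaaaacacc
Cidec (chr6:113435761-113436010, minus strand): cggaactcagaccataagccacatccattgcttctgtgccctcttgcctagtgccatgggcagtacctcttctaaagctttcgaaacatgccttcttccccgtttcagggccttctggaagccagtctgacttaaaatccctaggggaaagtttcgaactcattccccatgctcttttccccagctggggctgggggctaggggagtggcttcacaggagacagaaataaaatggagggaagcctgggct
Plin4 (chr17:56109783-56110032, minus strand): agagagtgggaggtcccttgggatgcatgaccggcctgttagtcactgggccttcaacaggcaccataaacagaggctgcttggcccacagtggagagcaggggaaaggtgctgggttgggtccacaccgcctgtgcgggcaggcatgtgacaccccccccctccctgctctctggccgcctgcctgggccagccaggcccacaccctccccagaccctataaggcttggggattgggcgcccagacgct
The window of *Plin2* held 1 AGGTCA half-site and no GC box, that of *Pnpla2* held 2 GC boxes, and those of *Cidec* and *Plin4* held neither. Over the 8 members with an entry in the RefSeq table, 5 had a GC box (*Plin3*, *Plin5*, *Cideb*, *Pnpla2* and *Lipe*) and 2 had the half-site (*Plin2* and *Plin5*). Of all 32851 windows of this length in the table, 32.7% held a GC box and 14% held the half-site. These are shares of single windows. The members were counted by gene, and *Plin5*, *Cidec* and *Lipe* had 2 windows each, so that the units are not alike. Both letter patterns were found among the even and among the uneven genes, as *Plin3*, *Pnpla2* and *Lipe* were even and *Plin5* and *Cideb* were not.

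Among the coat proteins, *Plin2* (chromosome 4, 86648386 to 86670060, minus strand, GRCm38) measured 846, 518 and 532 CPM in WT mice 1 to 3, and 600, 720 and 689 CPM in Lpcat3 KOMac mice 1 to 3. WT mouse 1 was the highest of all and the other WT mice were the lowest, so that the groups overlapped. WT mice averaged 632 ± 185.5 CPM (SD, n = 3) and Lpcat3 KOMac mice 670 ± 62.0 CPM (SD, n = 3). The log2 fold change, which here and hereafter is Lpcat3 KOMac against WT, was 0.08 (SE 0.22) with a 95% interval from -0.45 to 0.62. The interval thus covers changes of moderate size in either direction.

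*Plin3* (chromosome 17, 56278962 to 56290511, minus strand), whose product moves from the cytosol to newly formed droplets, was 66.8, 45.1 and 50.2 CPM in WT mice and 52.5, 60.2 and 54.8 CPM in Lpcat3 KOMac mice. As for *Plin2*, WT mouse 1 and Lpcat3 KOMac mouse 2 were the 2 highest libraries, and the groups overlapped (log2 fold change 0.05, SE 0.16).

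The other 2 perilipins varied far more between mice. *Plin4* (chromosome 17, 56100591 to 56109803, minus strand), a long coat protein best known from adipocytes, was 30.4, 2.64 and 1.05 CPM in WT mice and 10.7, 18.5 and 5.82 CPM in Lpcat3 KOMac mice. *Plin5* (chromosome 17, 56111601 to 56117596, minus strand), which tethers droplets to mitochondria in tissues that burn fat, was 17.9, 1.64 and 0.787 CPM in WT and 4.63, 14.9 and 2.44 CPM in Lpcat3 KOMac mice. For both genes WT mouse 1 was the highest library, WT mice 2 and 3 were the lowest, and the Lpcat3 KOMac mice lay within the WT range. The log2 fold change was 0.04 (SE 1.26) for *Plin4* and 0.10 (SE 1.31) for *Plin5*. The interval for *Plin4* ran from -3.11 to 3.18, so that the 6 mice leave its direction and its size undetermined.

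Of the 4 perilipins together, compared per kb of exon, *Plin2* made up 84.3 to 87.7% in each of the 6 libraries and *Plin3* 10.8 to 13.3%. *Plin4* and *Plin5* were the minor forms everywhere. The share of *Plin5* was 3.01% in WT mouse 1 and 2.93% in Lpcat3 KOMac mouse 2, and it was at most 1.11% in the other 4 libraries.

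*Cidec* and *Cideb* encode proteins at droplet contact sites, where CIDEC lets lipid pass into the larger droplet and CIDEB, in hepatocytes, also takes part in loading lipid onto VLDL. *Cidec* (chromosome 6, 113424634 to 113435760, minus strand) was 37.8, 1.92 and 1.53 CPM in WT mice and 6.72, 40.8 and 5.23 CPM in Lpcat3 KOMac mice. One mouse of each genotype was thus near 40 CPM and the other 4 were below 7 CPM. WT mice averaged 13.7 ± 20.8 CPM (SD, n = 3) and Lpcat3 KOMac mice 17.6 ± 20.1 CPM (SD, n = 3), and the log2 fold change was 0.35 (SE 1.50). *Cideb* (chromosome 14, 55754045 to 55758458, minus strand) was 30.0, 3.39 and 2.21 CPM in WT mice and 6.97, 15.1 and 6.74 CPM in Lpcat3 KOMac mice. It had the narrowest range of the 5 uneven genes, 13.6-fold, and a log2 fold change of -0.31 (SE 1.06). Of the 1493 exonic bases of *Cideb*, 1141 are shared with *Nop9* on the other strand, which had 2238 to 2890 counts per library, and the strand setting of the counting is not given in the sources used here, so the level of *Cideb* is uncertain.

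The last step of triglyceride synthesis is carried out by DGAT1 and DGAT2, which are unrelated in sequence. *Dgat1* (chromosome 15, 76502015 to 76511951, minus strand) was 17.5, 14.6 and 16.7 CPM in WT mice and 13.7, 14.3 and 18.8 CPM in Lpcat3 KOMac mice. No library of either genotype stood apart, and the log2 fold change was -0.06 (SE 0.16). *Dgat2* (chromosome 7, 99153658 to 99182719, minus strand), the form most active in hepatocytes and adipocytes, was 208, 23.8 and 8.94 CPM in WT mice and 47.1, 157 and 38.7 CPM in Lpcat3 KOMac mice. Its WT mice took both the highest and the lowest places. WT mice averaged 80.4 ± 111 CPM (SD, n = 3) and Lpcat3 KOMac mice 80.8 ± 65.8 CPM (SD, n = 3) (log2 fold change 0.01, SE 1.24). Per kb, *Dgat2* exceeded *Dgat1* 11.8-fold in WT mouse 1 and 10.8-fold in Lpcat3 KOMac mouse 2, but lay below it in WT mouse 3 (ratio 0.531). The more abundant DGAT transcript therefore differed from mouse to mouse within the WT group.

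The lipases were both even. *Pnpla2* (chromosome 7, 141455198 to 141460743, plus strand), which encodes ATGL, was 183, 130 and 132 CPM in WT mice and 118, 147 and 121 CPM in Lpcat3 KOMac mice. The means were 149 ± 29.9 CPM (SD, n = 3) and 129 ± 15.6 CPM (SD, n = 3), with a log2 fold change of -0.21 (SE 0.17) and a 95% interval from -0.63 to 0.21. Lpcat3 KOMac mice 1 and 3 lay below all WT mice, but Lpcat3 KOMac mouse 2 lay above 2 of them. *Lipe* (chromosome 7, 25379527 to 25398710, minus strand), which encodes hormone-sensitive lipase, the enzyme that acts on diglycerides, was 28.3, 29.1 and 30.6 CPM in WT mice and 24.4, 30.5 and 27.8 CPM in Lpcat3 KOMac mice. It was the most even of the 10 genes, with 1.25-fold between its highest and lowest library and a log2 fold change of -0.09 (SE 0.11). *Pnpla2* exceeded *Lipe* 8.45 to 12.6-fold per kb, with the highest ratio in WT mouse 1.

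**Figure D2:**
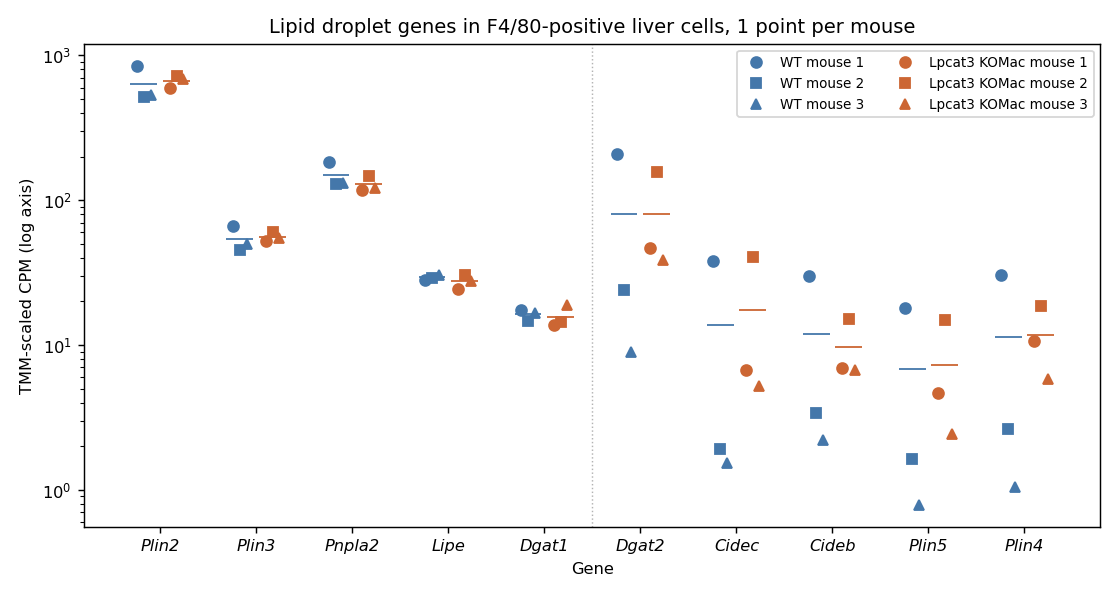
TMM-scaled CPM (log axis) of each of the 10 lipid droplet genes in each of the 6 libraries, WT in blue and Lpcat3 KOMac in orange, with a horizontal line at each group's mean. The groups overlap for every gene, and the 3 WT points of *Plin4*, *Plin5*, *Cidec*, *Cideb* and *Dgat2* span more than 10-fold.

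Tested with edgeR's quasi-likelihood test over 16134 genes, 0 of the 10 genes passed an adjusted p of 0.05, as did 0% of all genes, and every one of the 10 had an adjusted p of 0.9999. At an unadjusted p under 0.05 there were 0 of the 10, against 2.64% of all genes. DESeq2 called 0 of the 10 and 0.0744% of all genes, with genes that it gave no p-value counted among all genes. It gave none for *Cidec* and *Cideb*, so that these could not be called. Limma-voom called 0 of the 10 and 0% of all genes. The groups overlapped for 10 of 10 genes, whereas 7.49% of all genes tested had no overlap. Of the 10, 6 had a log2 fold change above 0 and 4 below, with a median of 0.02 beside -0.04 for all genes. Of all genes tested, 6466 were above 0 and 9668 below. The median of the 10 was 0.24 in limma-voom (all genes -0.0063) and 0.16 with total counts alone (8 of 10 above 0, all genes 0.057). It was 1.06 without WT mouse 1 (all genes -0.034) and -0.39 without Lpcat3 KOMac mouse 2 (3 of 10 above 0, all genes -0.026). Exact permutation tests of the single genes, two-sided, gave p between 0.4 and 0.8 (n = 3 per group, smallest possible p = 0.1).

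The 10 genes differed in their spread between mice. A range of at least 10-fold between the highest and the lowest library was seen for 5 of the 10 genes and for 7.59% of all genes tested, and the median range was 7.61-fold for the 10 and 1.62-fold for all genes. WT mouse 1 and Lpcat3 KOMac mouse 2 were the 2 highest libraries for 8 of the 10 genes, all but *Dgat1* and *Lipe*, and for 21.8% of all genes. These same mice were the 2 highest for 10 of 10 hepatocyte markers. *Alb*, the gene of serum albumin, was 13050, 1205 and 1319 CPM in WT mice and 3131, 9289 and 3138 CPM in Lpcat3 KOMac mice. In RNA from a mixed preparation, fewer cells of a type and less RNA per cell cannot be told apart.

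Divided by the summed hepatocyte markers, the uneven genes varied much less. Per 1000 CPM of these markers, *Cideb* was 1.26, 1.42 and 0.963 CPM in WT mice and 1.22, 0.981 and 1.24 CPM in Lpcat3 KOMac mice, a range of 1.47-fold in place of 13.6-fold. *Dgat2* was 8.76, 9.95 and 3.90 CPM in WT mice and 8.25, 10.1 and 7.09 CPM in Lpcat3 KOMac mice, a range of 2.60-fold in place of 23.3-fold. The ratio of *Plin5* varied 2.81-fold, that of *Cidec* 3.96-fold and that of *Plin4* 4.10-fold. *Cideb* thus kept nearly the same proportion to the hepatocyte markers in all 6 mice, whereas the ratio of *Cidec* was highest in Lpcat3 KOMac mouse 2 (2.64 CPM) and that of *Plin4* lowest in WT mouse 3 (0.458 CPM). The same division made the even genes uneven, with ranges of the ratio from 6.53-fold for *Plin2* to 11.2-fold for *Lipe*. The groups overlapped in the ratio for 10 of 10 genes.

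**Figure D3:**
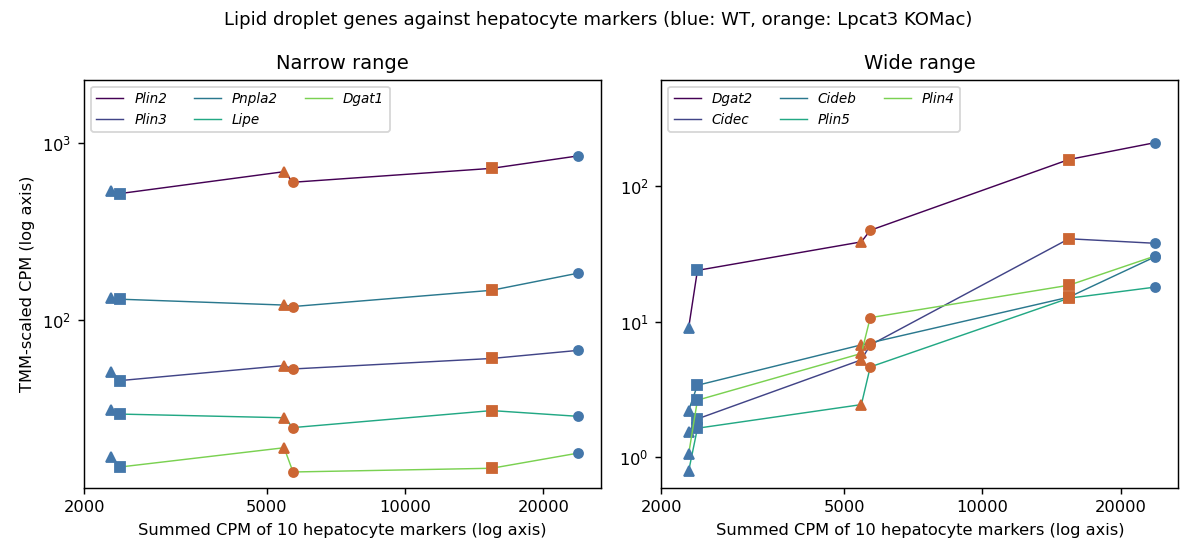
TMM-scaled CPM of each lipid droplet gene against the summed CPM of 10 hepatocyte markers (both log axes), with the 5 even genes on the left and the 5 uneven genes on the right, and 1 point per mouse (circle, square and triangle for mouse 1, 2 and 3). Lines on the right climb from WT mice 2 and 3 to Lpcat3 KOMac mouse 2 and WT mouse 1, while those on the left stay within 1.63-fold.

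Of the 4 adipocyte markers, 3 had at most 3 counts in every library and *Cfd* had more. *Lep* had 0 counts in every library, *Adipoq* at most 1 and *Plin1*, the perilipin of the adipocyte droplet, at most 3. *Cfd*, which other cells also express, had 313 counts in WT mouse 1 and 2 to 49 in the other 5 libraries. The adipocyte sum was 4.85 CPM in WT mouse 1 and 0.0875 to 0.896 CPM in the other 5 libraries, and it was 0.270 CPM in Lpcat3 KOMac mouse 2, where *Cidec* was highest. Summed Kupffer cell markers were lowest in Lpcat3 KOMac mouse 2 (25850 CPM) and were 31700 CPM in WT mouse 1, the third lowest. The summed stellate cell markers were 170 CPM in Lpcat3 KOMac mouse 2, 139 CPM in WT mouse 1 and 45.5 to 118 CPM in the other 4 libraries, and these mice were the 2 highest for 4 of 5 stellate markers. Endothelial markers summed to 836 to 1169 CPM and lymphocyte markers to 3.36 to 6.59 CPM. Summed neutrophil markers were low, at 1.96 to 2.95 CPM in WT and 3.97 to 5.36 CPM in Lpcat3 KOMac mice, without overlap of the sums. Of the 4 single genes only *S100a8* had no overlap, as did 7.49% of all genes. *S100a9* and *Retnlg* overlapped, and *Ly6g* had at most 3 counts. The part of these other cells in the levels of the droplet genes was not tested.

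Since the uneven genes rested on single mice, their differences depended on which mice were compared. Without WT mouse 1, the remaining Lpcat3 KOMac mice were above the remaining WT mice for 7 of the 10 genes, while 32.7% of all genes then had no overlap. In that comparison 6 genes reached an unadjusted p under 0.05, all higher in Lpcat3 KOMac mice, against 9.67% of all genes in that direction, and 0 passed the adjusted threshold. These were *Plin2* (log2 fold change 0.35), *Plin4* (2.66), *Plin5* (2.59), *Cidec* (3.35), *Cideb* (1.78) and *Dgat2* (2.30). The hepatocyte markers moved with them, as 9 of 10 reached the same threshold with a median log2 fold change of 2.06, and *Alb* itself had 2.04. Without both WT mouse 1 and Lpcat3 KOMac mouse 2, an alternative chosen after seeing the data, the same 6 genes reached an unadjusted p under 0.05, against 8.63% of all genes in that direction, and 9 of the 10 genes had no overlap (*Pnpla2* and *Lipe* lower in Lpcat3 KOMac mice, the other 7 higher), against 41.8% of all genes. Their log2 fold changes were then 0.30 (*Plin2*), 2.16 (*Plin4*), 1.54 (*Plin5*), 1.79 (*Cidec*), 1.29 (*Cideb*) and 1.39 (*Dgat2*), beside a median of 1.44 for the hepatocyte markers. Without WT mouse 2, and likewise without WT mouse 3, 0 of the 10 genes were higher in Lpcat3 KOMac mice. In both comparisons 0 of 10 hepatocyte markers were higher too, with a median log2 fold change of -0.76 and -0.79. The median of all genes was then -0.03 and -0.04.

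**Figure D4:**
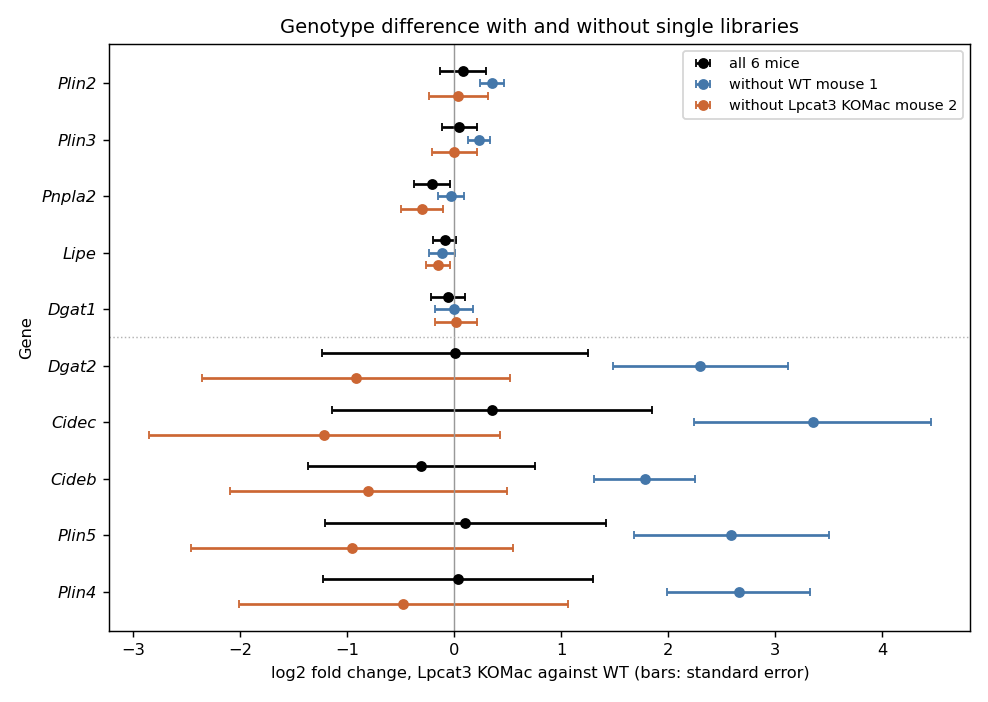
Log2 fold change of Lpcat3 KOMac against WT (edgeR) for the 10 lipid droplet genes, with bars of 1 SE, with all 6 mice (black), without WT mouse 1 (blue) and without Lpcat3 KOMac mouse 2 (orange). For *Cidec* the value moves from 0.35 to 3.35 without WT mouse 1 and to -1.21 without Lpcat3 KOMac mouse 2, while that of *Lipe* stays between -0.15 and -0.09.

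With the hepatocyte markers as a covariate in edgeR, 1 of the 10 genes, *Pnpla2*, reached an unadjusted p under 0.05. So did 1584 of 16134 genes in either direction, a similar share. The log2 fold change of *Pnpla2* was -0.30 (SE 0.07), with an unadjusted p of 0.00562 and an adjusted p of 0.421. In that fit 5.97% of all genes were, like *Pnpla2*, lower at an unadjusted p under 0.05. With the same covariate in DESeq2, an alternative added after seeing the data, *Pnpla2* passed the threshold (log2 fold change -0.29, SE 0.08, adjusted p = 0.0243), as did 0.967% of all genes in that direction. The coefficient of *Plin2* with the covariate was -0.0062 in edgeR, next to 0.08 without it. With 6 libraries, a fit with genotype and a covariate leaves 3 residual degrees of freedom.

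For each gene, the 3 genes whose log2 levels over the 6 libraries were most like it, after each gene was centred on its own mean, were found by the root mean square difference. For *Cideb*, *Cidec* and *Plin4* these included transcripts that hepatocytes are known for. *Cideb* was nearest to *Serpina1d* (0.04 log2 units), *Clstn3* and *Serpina1a*, the Serpina1 genes being copies of the gene of the secreted protease inhibitor alpha-1-antitrypsin. *Cidec* was nearest to *Cyp4a10* (0.25), *Mal2* and *Apoa4*, and *Plin4* to *Cyp2a12* (0.17), *Abca6* and *Sema5b*. *Dgat2* was nearest to *Gabbr2* (0.09), *Ddo* and *Mpzl2*, and *Plin5* to *Acss3* (0.17), *Plscr2* and *Slc6a9*. The distance is not scaled by how much a gene varies, so that it is small between genes that hardly vary. Among the even genes, *Pnpla2* was nearest to *Ndufb5* (0.02), *Timm17b* and *Cox7a2*, which encode mitochondrial proteins, and *Plin2* to *Setd6* (0.04), *Polr3g* and *Mmab*. *Plin3* was nearest to *Galt*, *Chuk* and *Ccnc*, *Dgat1* to *Kdelr3*, *Hypk* and *Mpzl1*, and *Lipe* to *Armt1*, *Hist1h4i* and *Cep89*. Among the 10 genes themselves the closest pair was *Plin2* and *Plin3*, at 0.09.

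Around these 10, 32 further genes of droplet and glycerolipid metabolism in 5 lists were examined, of which 30 passed the filter (*Plin1* and *Mogat2* did not). None was called by edgeR, and 1 of 30 had an unadjusted p under 0.05 (2.64% of all genes did). No overlap between genotypes was seen for 2 of 30 (7.49% of all genes). The log2 fold change was above 0 for 10 and below 0 for 20, with a median of -0.06. Of all genes tested, 6466 lay above 0 and 9668 below, with a median of -0.04. WT mouse 1 and Lpcat3 KOMac mouse 2 were the 2 highest libraries for 21 of the 30, against 21.8% of all genes.

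The genes without overlap were *Bscl2* and *Tmem159*, a number near the share among all genes. *Bscl2*, which encodes seipin, was 64.6, 62.6 and 63.0 CPM in WT mice and 54.0, 57.1 and 62.4 CPM in Lpcat3 KOMac mice. *Tmem159*, which encodes promethin, the partner of seipin, was 18.4, 23.9 and 21.4 CPM in WT mice and 17.3, 15.9 and 17.8 CPM in Lpcat3 KOMac mice. All Lpcat3 KOMac mice thus lay below all WT mice for both, by narrow margins. The log2 fold change was -0.13 (SE 0.08) for *Bscl2* and -0.32 (SE 0.13, unadjusted p = 0.0454) for *Tmem159*, and both had an adjusted p of 0.9999 in edgeR. In 10 of 18 alternatives the unadjusted p of *Tmem159* was not under 0.05, with a range from 0.0115 to 0.181. Without Lpcat3 KOMac mouse 1, *Bscl2* had -0.05. *Fitm1*, the most abundant per kb of the remaining pair in that list, was an uneven gene with 29.8-fold between its highest and lowest library.

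In the list of coat proteins and lipolysis control, *G0s2*, which encodes an inhibitor of ATGL, was 35.2, 5.61 and 2.82 CPM in WT mice and 9.08, 59.1 and 13.3 CPM in Lpcat3 KOMac mice. It had the same 2 highest mice as the uneven droplet genes and a log2 fold change of 0.90 (SE 1.18). *Hsd17b11*, a dehydrogenase found on droplets, ranged 1.51-fold over the libraries (log2 fold change -0.17, SE 0.17, and -0.0046 without WT mouse 1). Of the 10 glycerolipid synthesis genes tested, 3 had a log2 fold change above 0 and 7 below, beside 6466 and 9668 of all genes tested. By the mean over 6 libraries, the most abundant per kb were the acyltransferase genes *Agpat3* (log2 fold change -0.12, SE 0.18) and *Agpat1* (0.01, SE 0.13), though in WT mouse 1 *Agpat2* and *Lpin1*, named after their values were seen, exceeded both.

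Among the 8 genes of neutral lipid hydrolysis, the lysosomal acid lipase gene *Lipa* was the most abundant, at 1037 to 1302 CPM in all 6 libraries, with a log2 fold change of 0.06 (SE 0.12). *Aadac*, an esterase gene of the liver, was uneven instead, at 163.6, 13.5 and 11.4 CPM in WT mice and 37.2, 71.3 and 30.4 CPM in Lpcat3 KOMac mice. It was named by its mean over 6 libraries, 36.4 CPM per kb, beside 33.7 CPM per kb for *Nceh1*. Per kb, *Nceh1* exceeded *Aadac* in WT mice 2 and 3 and in Lpcat3 KOMac mice 1 and 3, and it ranged 1.24-fold. The 2 sterol ester synthesis genes ranged 1.49-fold (*Soat1*) and 6.65-fold (*Soat2*) between their highest and lowest library. *Soat1*, the form that macrophages use to store cholesterol, was 218 to 326 CPM in the 6 libraries (log2 fold change -0.02, SE 0.18). *Soat2*, the form of hepatocytes and intestine, was 13.1, 2.04 and 1.97 CPM in WT mice and 4.80, 8.22 and 3.97 CPM in Lpcat3 KOMac mice (log2 fold change -0.01, SE 0.84).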

How the data were processed

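Read counts per Ensembl gene were deposited by the authors, in 1 table per mouse, without normalization. The submitters' processing notes name Trimmomatic 0.36, STAR 2.5.2b, featureCounts of Subread 1.5.2 and the GRCm38 build. The strand setting, the annotation release and the treatment of reads with several matches are not given in the sources used here, and the library kit, as described, does not mark strand. Levels of overlapping genes are therefore uncertain: besides *Cideb*, *Lipe* shares 918 exonic bases with the antisense gene 4732471J01Rik (32 to 70 counts per library).

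Symbols came from GENCODE M21, and 49056 of 49315 identifiers matched. Coordinates and exonic lengths came with the deposited counts, and 44858 genes had the same start and end in GENCODE M21. The counts of the 6 libraries (44954224 to 71392812 in total) were TMM-scaled and tested with edgeR 4.0.16 in R 4.3.3 (filterByExpr, minimum count 10, robust quasi-likelihood F-test, genotype as the only term, Benjamini-Hochberg adjustment over 16134 genes). Intervals are 95%, and the SE of a log2 fold change was obtained from it and the F statistic. CPM values are counts over TMM-scaled library size, the log2 distances between genes used a prior count of 2, and exact permutation tests used SciPy 1.17.1. At most 3 counts in a library counts as not detected. The labels do not say more than that the 6 samples are separate animals. No pair of libraries agreed within sampling noise (chi-square per degree of freedom 40.8 to 520.2).

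Alternatives were DESeq2 1.42.0 and its size factors, limma-voom 3.58.1, total counts alone, other filters, no robust dispersion, a length offset, a covariate made of 10 hepatocyte markers (their mean log2 CPM), a block for the replicate number, and leaving out each mouse. The scripts were tested on simulated counts with less spread between mice than in these data. That test checks the code, and it does not measure error rates or power for these libraries. The members and all gene lists were chosen with earlier results of these data known. Named besides the 10 members were *Lpcat3*, *Lyz2*, *Alb*, the 3 nearest genes of each member, and, of each other list, genes with an unadjusted p under 0.05 or no overlap and the 2 most abundant per kb. The adipocyte markers, the neutrophil markers, the overlapping genes, *Agpat2*, *Lpin1*, *Hilpda* and *Nceh1* were named after their values were seen.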

Additional observations from a re-analysis of the deposited data

How the results depend on the processing

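In 18 alternatives for each of the 10 droplet genes, 146 of 180 log2 fold changes kept their direction and 34 changed it. EdgeR called 0 of the 10 in every setting run. The number of genes called overall was 0 in edgeR, 12 in DESeq2 and 209 in DESeq2 with the hepatocyte covariate, which called 1 of the 10, *Pnpla2*. Of the 10 genes, 0 had no overlap between genotypes with all mice, 0 to 7 when single mice were left out (7 without WT mouse 1, 2 without Lpcat3 KOMac mouse 2, beside 14.7% of all genes, and 1 without Lpcat3 KOMac mouse 3, beside 15.3%) and 9 without WT mouse 1 and Lpcat3 KOMac mouse 2 together. *Lpcat3* and *Lyz2* passed the threshold in DESeq2 (adjusted p = 0.00286 and 0.0485) but not in edgeR (adjusted p = 0.9999 for both).

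Leaving out 1 mouse moved the log2 fold change between -0.042 and 0.35 for *Plin2*, -0.069 and 0.23 for *Plin3*, -0.50 and 2.66 for *Plin4*, -0.95 and 2.59 for *Plin5*, -1.21 and 3.35 for *Cidec*, -0.80 and 1.78 for *Cideb*, -0.19 and 0.062 for *Dgat1*, -0.92 and 2.30 for *Dgat2*, -0.30 and -0.03 for *Pnpla2*, and -0.15 and 0.029 for *Lipe*. Of the other genes it moved *G0s2* between -0.39 and 2.69, *Fitm1* between -1.21 and 2.02, *Aadac* between -0.94 and 1.89, *Soat2* between -0.42 and 1.50, *Soat1* between -0.14 and 0.14, *Agpat1* between -0.096 and 0.081, *Agpat3* between -0.25 and 0.049, *Hsd17b11* between -0.29 and -0.0046, *Bscl2* between -0.16 and -0.05, *Tmem159* between -0.42 and -0.23, and *Lipa* between 0.018 and 0.17. For the uneven genes the highest value was the one without WT mouse 1.

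Other settings turned the direction as follows. With the hepatocyte covariate *Plin2* had -0.0062, *Plin3* -0.029, *Soat1* 0.074 and *Soat2* 0.0046 in edgeR, and -0.0004, -0.023, 0.08 and 0.0071 in DESeq2. With total counts alone *Dgat1* had 0.035, *Lipe* 0.001, *Soat1* 0.066 and *Soat2* 0.14. *Dgat2* had -0.0039 with DESeq2's size factors, -0.0203 without the filter and -0.0034 in DESeq2. With the length offset *Plin4* had -0.026 and *Soat2* 0.014. In limma-voom *Cideb* had 0.36, *Fitm1* 0.42, *Aadac* 0.48 and *Soat2* 0.41. Without WT mouse 1 and Lpcat3 KOMac mouse 2 *Cideb* had 1.29, *Dgat1* 0.05, *Agpat1* -0.05, *Fitm1* 1.58, *Aadac* 1.44, *Soat1* 0.0025 and *Soat2* 1.13. The cause of these changes was not tested.

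With the replicate number as a block, edgeR called 0 genes and 0 of the 10 (138 genes at an unadjusted p under 0.05). The median log2 fold change of the 10 was then 0.41, beside -0.007 for all genes. *Cideb* had 0.71, *Fitm1* 0.83, *Aadac* 0.72 and *Soat2* 0.57. Deviations of same-numbered mice correlated at -0.30, -0.60 and 0.36, so the numbers were not taken as a pairing, and not every mouse correlated best with its own number. With 3 mice a group, the intervals of the uneven genes reach beyond a log2 fold change of 2 in either direction, which limits what can be said of them.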

Other observations

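The transcripts of *Pnpla2* and of *G0s2*, an ATGL inhibitor gene, were set side by side. This ratio was chosen after the values were seen. Per kb, *Pnpla2* exceeded *G0s2* 1.50, 6.71 and 13.5-fold in WT mice 1 to 3, and 3.77, 0.715 and 2.63-fold in Lpcat3 KOMac mice 1 to 3. Lpcat3 KOMac mouse 2 was the only library of the 6 in which *G0s2* was the more abundant. *G0s2* was highest in this mouse and in WT mouse 1, as were the hepatocyte markers, and their part in the ratio was not tested. *Hilpda*, of the list of coat proteins and lipolysis control, was 12.7, 17.3 and 24.3 CPM per kb in WT mice. It was 20.8, 12.1 and 20.8 CPM per kb in Lpcat3 KOMac mice, and thus lowest in Lpcat3 KOMac mouse 2. The ratio of *Cidec* to *Cideb* per kb was 1.01, 0.454 and 0.557 in WT mice and 0.775, 2.17 and 0.624 in Lpcat3 KOMac mice, so that *Cidec* led clearly in that same mouse.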
